A study of Mus musculus with 13 samples.

Results

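Crym, Thra, Thrb, Dio2 and Thrsp, 5 genes of thyroid hormone action, were followed in mouse neurons and brain sections. The neurons came from the retrosplenial cortex, a midline cortical area. Crym encodes a binding protein, Thra and Thrb the receptors, Dio2 the activating enzyme and Thrsp a hormone-responsive protein. They were chosen by name and because earlier results of these data showed that their levels differed between groups, so their own levels are given here as a description without a test. Of the 5 genes, 4 were among the 15114 genes of the cell table, which had no row for Dio2, and all 5 were among the 32285 genes of the section table. None of the 5 is a membrane transporter. The transporters of the hormone were therefore taken from a separate list of 47 pathway genes.

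The cells were neurons of wild-type mice of the B6 strain, pooled over slices after dissociation, and they formed 1 group of 11 samples, drawn from 3 animals. Each of the 765 cells carried its level of dissection: anterior (256 cells), medium (217 cells) or posterior (292 cells). The sections were 2 wild-type brain cryosections of 10 µm on Visium slides, with 1022 spots in the library called S4 and 951 in the library called S8. No treatment, transgene or age is given in the labels, and no group other than wild type was analysed here. A spot is a small region that can hold several cells of different types, so a lower level in spots can mean fewer cells of a type or less RNA per cell, which cannot be told apart.

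Thyroid hormone reaches brain cells through membrane transporters, mainly as the prohormone thyroxine. The enzyme encoded by Dio2, made chiefly by astrocytes, converts it to the active form triiodothyronine, and the enzyme encoded by Dio3, made in neurons, degrades both. In neurons the active hormone binds the nuclear receptors encoded by Thra and Thrb, which act on chromatin with retinoid X receptors and with corepressors or coactivators, while Crym encodes mu-crystallin, a cytosolic protein that binds the hormone in the presence of NADPH.

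Cells were grouped by marker genes. A cell went to the group with the highest mean z-score of log2(CPM + 1) over its markers, provided that at least 2 of 4 (or 3 of 5) markers had a count, where CPM is the usual scaling of a gene's counts by the total count of the cell or sum. In this way 615 cells were placed in 7 groups and 150 in none. The groups are called by a leading marker: Calb1 (206 cells), C1ql2 (139 cells, with the layer 5 extratelencephalic markers Fezf2 and Bcl11b), Tnnc2 (115 cells), Il1rapl2 (68 cells), Osr1 (53 cells, layer 6 intratelencephalic markers), Foxp2 (23 cells, layer 6 corticothalamic markers) and Ctgf (11 cells, layer 6b markers). The Ctgf group had no cell from animal 3. Levels of a gene are CPM of the counts summed over the cells of an animal, and n is the number of animals.

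Total counts per sample ran from 2306470 to 15974543, and median counts per cell from 65843 in animal 1 to 185995 in animal 3. The labelled cell type was met in nearly all cells: Slc17a7, the transporter gene of excitatory neurons, had a count in 756 of 765 cells (98.8%), and summed interneuron markers stayed at or below 2.00 CPM at every dissection level. Of the 6 astrocyte markers, Aqp4, Gja1 and Gfap had counts in 1.44% to 2.09% of cells, Slc1a3 in 3.53% and S100b in 8.50%, while Aldoc had a count in 43.5%. Cells near a cut of the grouping numbered 55.

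Promoter sequences, the 250 bases before an annotated start in RefSeq (build GRCm38.p6), were in the reference tables for Thrb, Dio2 and Thrsp. They are shown for Thrb, because 2 annotated starts were listed for a gene with a single row in each table. Dio2 is shown because it is the member seen in sections only. The annotated Thrb gene begins at 17659225, upstream of both listed starts, so these may not be all. Capitals mark AGGTCA, the core motif of many nuclear receptors, or TGACGTCA, the cAMP response element, both searched on both strands.
Thrb upstream start, chr14:17660710-17660959, plus strand: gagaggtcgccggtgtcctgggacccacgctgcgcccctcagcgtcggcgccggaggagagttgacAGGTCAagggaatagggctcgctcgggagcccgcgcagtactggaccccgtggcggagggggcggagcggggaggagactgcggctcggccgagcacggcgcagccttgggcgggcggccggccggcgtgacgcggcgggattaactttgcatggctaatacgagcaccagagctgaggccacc
Thrb downstream start, chr14:17981394-17981643, plus strand: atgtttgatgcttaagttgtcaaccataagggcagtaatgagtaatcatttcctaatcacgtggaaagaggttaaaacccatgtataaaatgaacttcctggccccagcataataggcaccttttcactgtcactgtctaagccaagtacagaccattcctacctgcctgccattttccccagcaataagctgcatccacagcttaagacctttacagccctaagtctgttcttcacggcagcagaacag
Dio2, chr12:90739039-90739288, minus strand: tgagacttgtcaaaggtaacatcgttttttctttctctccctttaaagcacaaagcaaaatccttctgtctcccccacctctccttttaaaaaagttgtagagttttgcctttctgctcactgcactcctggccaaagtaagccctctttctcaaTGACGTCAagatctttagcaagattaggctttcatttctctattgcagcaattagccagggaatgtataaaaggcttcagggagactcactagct
AGGTCA occurred once before the upstream Thrb start, beginning 184 bases before it, and TGACGTCA once before Dio2, beginning 95 bases before it. Neither motif was found before the downstream Thrb start or before Thrsp. Of all 32851 promoters of this length, 14% held AGGTCA and 1.55% held TGACGTCA. These matches describe letters only. The counts are per gene and do not tell the Thrb starts apart.

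Crym was found in a part of the neurons and at a high level there. It had counts in 323 of 765 cells (42.2%, exact 95% binomial interval 38.7% to 45.8%, counting error only). In the C1ql2 group it stood at 674, 595 and 511 CPM in animals 1, 2 and 3 (593 ± 81.3, SD, n = 3), and 131 of 139 cells (94.2%) had a count. In the Foxp2 group it stood at 355, 636 and 510 CPM (500 ± 141, n = 3), with a count in 22 of 23 cells. The ranges of these 2 groups overlapped, and both lay above every other group in all 3 animals. Without animal 1 the order of the pair turned, with a C1ql2 mean of 553 CPM. The overlap depended on the grouping. With 1 marker fewer needed, a setting chosen after seeing the data, the Foxp2 mean was 371 CPM (range 217 to 464), with a count in 51 of 63 cells. The C1ql2 range was then 489 to 669 CPM, without overlap.

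The Il1rapl2 group held Crym at an intermediate level of 47.1, 110 and 111 CPM, with counts in 37 of 68 cells (54.4%). The 150 cells in no group stood above it in each animal, at 119, 210 and 167 CPM, with counts in 74 cells (49.3%). The Calb1 group had 14.2, 16 and 5.08 CPM, and the Tnnc2 group 4.48, 7.85 and 7.16 CPM. In the Tnnc2 group 1 cell held 92.4% of the counts of animal 2 and 95.3% of those of animal 3, and with cells of a clear margin only the mean fell from 6.5 to 1.90 CPM. Crym was, within the animals, 47.6, 37.2 and 101 times as high in C1ql2 cells as in Calb1 cells. In Osr1 cells it was 25.6, 22.2 and 0.387 CPM, the last resting on 2 counts in 2 cells. The order from Ctgf through Osr1 and Calb1 to Tnnc2 was not resolved, since neighbouring ranges overlapped. With 1 marker fewer needed, a setting chosen after seeing the data, the Ctgf mean went from 22.8 to 109 CPM and the Osr1 mean from 16.1 to 33.3 CPM.

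The order of the highest shares was the same at equal depth. After every cell was thinned to 50000 counts, which left out 61 shallower cells of the 765, 93.3% of the C1ql2 cells, 95% of the Foxp2 cells and 50% of the Il1rapl2 cells kept a Crym count, against 12.2% in the Calb1 group (17% before thinning) and 9.01% in the Tnnc2 group (12.2% before thinning).

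**Figure D1:**
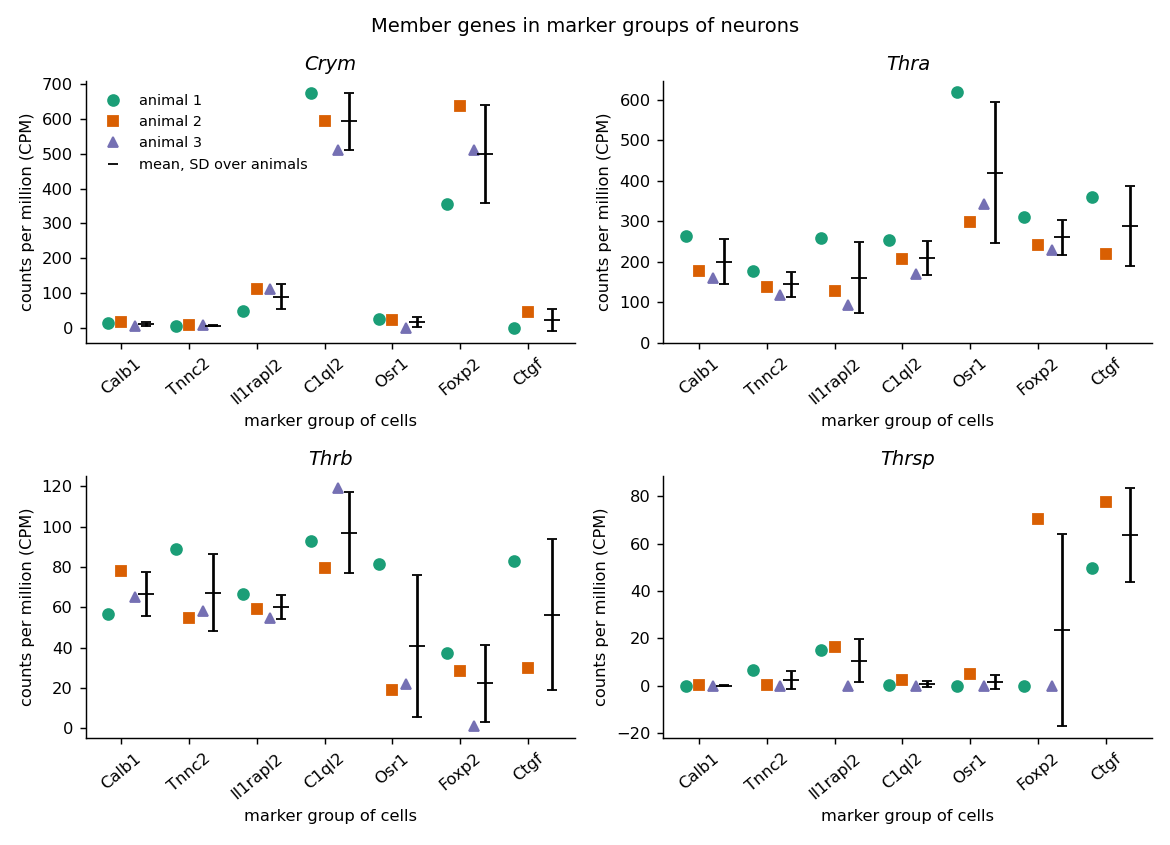
CPM of Crym, Thra, Thrb and Thrsp (y axes) in the 7 marker groups (x axes), 1 point per animal, with mean and SD over animals in black. Crym is above 350 CPM in the C1ql2 and Foxp2 groups of every animal and at most 111 CPM in the other marker groups. Thra is highest in Osr1 and Thrb in C1ql2 by the mean.

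The C1ql2 cells were not uniform. They were divided by known markers into cells with more Reln and Mc4r (47 cells) and cells with more Nrtn and Tns1 (75 cells), while 17 fell in neither. Crym was 865, 824 and 663 CPM in the Reln/Mc4r cells of animals 1, 2 and 3, and 540, 459 and 469 CPM in the Nrtn/Tns1 cells. The first was 1.60, 1.80 and 1.41 times the second, higher in 3 of 3 animals without overlap. Of the Reln/Mc4r cells, 43 of 47 were posterior, against 45 of 75 Nrtn/Tns1 cells, so dissection level moved with this division and its part was not tested. Thrb did not share a direction in all animals: it was 117, 111 and 87.2 CPM in Reln/Mc4r cells and 93.5, 65.4 and 132 CPM in Nrtn/Tns1 cells.

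**Figure D2:**
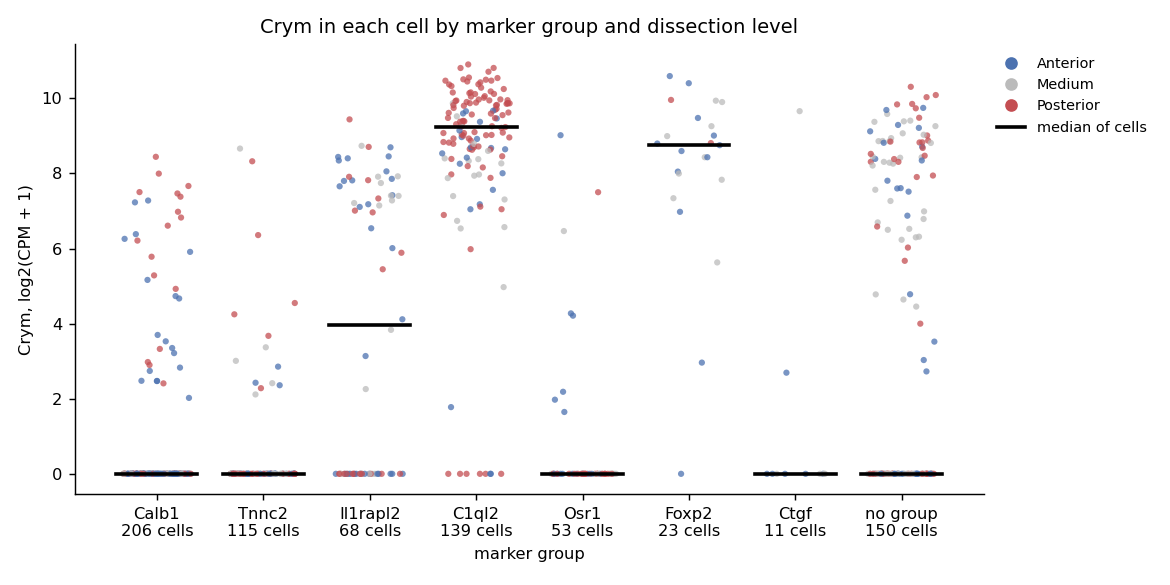
Crym in each of the 765 cells as log2(CPM + 1) (y axis) by marker group (x axis), with points coloured by dissection level and a bar at the median of the cells. Nearly all C1ql2 and Foxp2 cells lie well above 0, while the median is at 0 in the Calb1, Tnnc2, Osr1 and Ctgf groups.

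Posterior tissue held the most Crym. It was 71.2, 124 and 70.7 CPM in anterior cells of animals 1, 2 and 3, 125, 125 and 65.6 CPM in medium cells, and 447, 474 and 203 CPM in posterior cells (375 ± 149, n = 3). Posterior was 6.28, 3.82 and 2.87 times anterior, and the lowest posterior value lay above the highest value of the other levels. The C1ql2 group moved with this: 100 of its 139 cells were posterior, where it made up 34.2% of cells and gave 84.8% of Crym counts, against 8.20% of cells and 49.1% of counts in anterior tissue.

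The same weight was then given to each marker group with a cell at every level of an animal (3, 5 and 6 groups), however few its cells. The posterior values were 245, 209 and 248 CPM and the anterior values 131, 108 and 179 CPM. For these groups posterior was still higher in 3 of 3 animals but by less. Within the C1ql2 group only animal 2 had at least 5 cells at each level, and there Crym was 344 CPM in 15 anterior cells, 301 CPM in 10 medium cells and 937 CPM in 39 posterior cells. In posterior C1ql2 cells of animals 1 and 3 it was 727 and 557 CPM. In the Calb1 group no medium cell of any animal had a Crym count, against 18.4, 3.12 and 5.09 CPM in anterior cells, and posterior Calb1 cells of animals 2 and 3 had 50.3 and 11.4 CPM. The animals also differed in their cells: C1ql2 cells were 42 of 152 in animal 1, 64 of 304 in animal 2 and 33 of 309 in animal 3, and Crym over all cells was 276, 213 and 114 CPM. Over the 11 samples Crym had a lowest value of 90.6, a median of 211 and a highest value of 311 CPM.

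**Figure D3:**
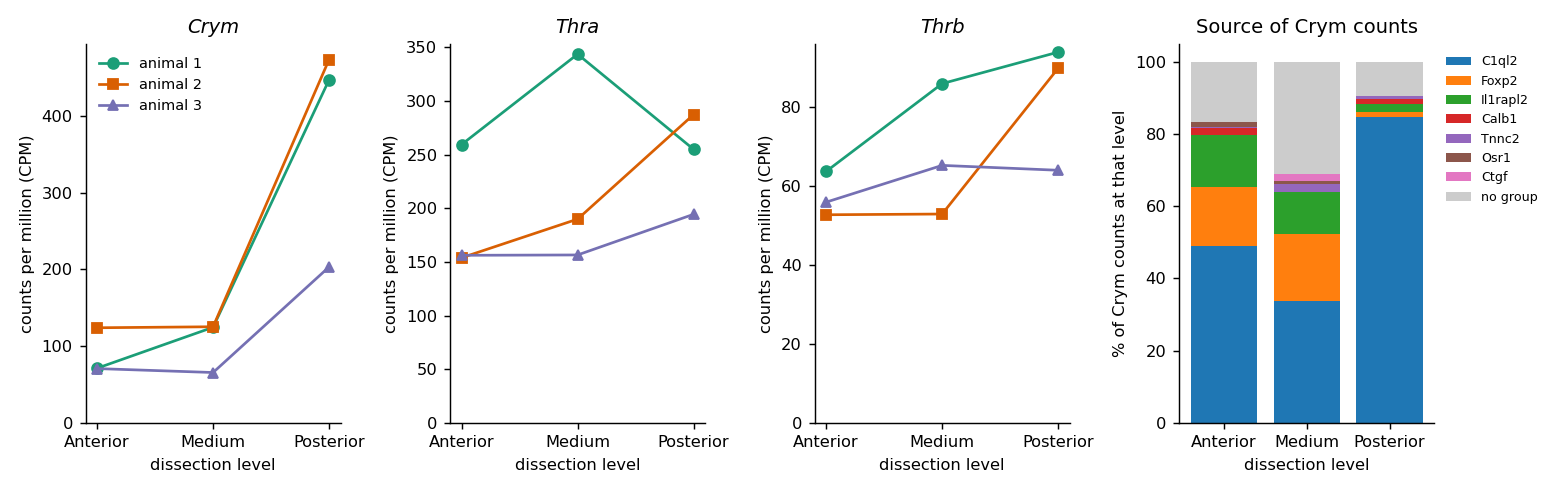
CPM of Crym, Thra and Thrb (y axes) by dissection level (x axes) with 1 line per animal, and the share of Crym counts that came from each marker group at each level (right, in %). All 3 Crym lines are highest at posterior, where 84.8% of the counts came from C1ql2 cells.

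Thra was found almost everywhere, with counts in 729 of 765 cells (95.3%). It was highest in the Osr1 group, at 618, 299 and 343 CPM (420 ± 173, n = 3), with a count in 53 of 53 cells. It was lowest by the mean in the Tnnc2 group, at 177, 138 and 117 CPM (144 ± 30.6), although in animals 2 and 3 the Il1rapl2 value was lower. Osr1 cells had 3.48, 2.17 and 2.92 times the level of Tnnc2 cells, and within each animal the Osr1 value was the highest of the 7 groups. The next groups, Ctgf (359 and 218 CPM) and Foxp2 (310, 242 and 230 CPM), overlapped with their neighbours in the order.

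The Il1rapl2 group had the largest share of cells without a Thra count: 55 of 68 cells (80.9%) had a count, at 259, 128 and 93.8 CPM. After thinning the share was 71.2%, against 90.1% to 100% in the other groups except Ctgf, where it was 87.5% of 8 cells. Thra overlaps Nr1d1, a gene of the circadian clock on the opposite strand, and the counting was not stated to use strand. Nr1d1 had its own row, and it was lower in Osr1 cells (25.1 ± 1.61 CPM) than in Il1rapl2 cells (52.3 ± 13.2 CPM), the reverse of Thra. Whether reads of the pair were exchanged was not tested.

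By dissection level Thra was 260, 154 and 156 CPM in anterior, 344, 190 and 157 CPM in medium and 255, 287 and 194 CPM in posterior cells. Posterior was 0.983, 1.87 and 1.24 times anterior, so the animals did not share a direction. The same weight was also given to each marker group with a cell at every level of an animal, however few. Medium values were then 289, 191 and 215 CPM, against 219, 160 and 145 CPM in anterior cells, higher in 3 of 3 animals. Posterior values were 190, 208 and 231 CPM, below anterior in animal 1 only. Within Calb1 cells medium Thra was 312, 177 and 152 CPM, against 268, 149 and 147 CPM in anterior cells (means 214 and 188 CPM). It was higher in 3 of 3 animals, but hardly so in animal 3, and the medium value of animal 1 rested on 5 cells. Within Tnnc2 cells it was 249, 189 and 138 against 137, 112 and 96.1 CPM (means 192 and 115 CPM), with 6 medium cells in animal 1. Among animals with at least 5 cells at both levels, posterior was above anterior in 2 of 2 in Calb1 and Tnnc2 cells. In Il1rapl2 cells it was above in 1 of 2.

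Thrb had counts in 506 of 765 cells (66.1%). The C1ql2 group held 92.7, 79.6 and 119 CPM (97.1 ± 20.2, n = 3), the highest level of the groups in each animal, and 116 of 139 cells (83.5%) had a count. Tnnc2 (67.3 ± 19.0), Calb1 (66.6 ± 10.8) and Il1rapl2 (60.3 ± 5.87 CPM) cells were close to each other, with overlapping ranges. Osr1 cells had 81.4, 19.1 and 21.9 CPM, and 1 cell held 85.7% of the counts behind the first of these. Foxp2 cells had 37.5, 28.4 and 0.941 CPM, the last from 1 count. Their low place depended on the grouping: with 1 marker fewer needed, a setting chosen after seeing the data, the Foxp2 mean went from 22.3 to 48.3 CPM (range 11.1 to 93.9), above the Osr1 mean of 30.6 CPM.

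The order of the groups differed between the receptors. Osr1 cells were highest for Thra, but for Thrb they were the lowest of the groups in animal 2 and second lowest in animal 3, with a Thrb count in 22 of 53 cells (41.5%) and, after thinning, in 26.0%. Foxp2 cells kept a Thrb count in 25.0% after thinning, against 77% of C1ql2 cells, 69.7% of Il1rapl2 cells, 63.1% of Tnnc2 cells and 61.2% of Calb1 cells.

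Joint detection of binding protein and receptors, without thinning, differed between the C1ql2 and Foxp2 groups, although both had high Crym. Thra had a count in 137 of 139 C1ql2 and 23 of 23 Foxp2 cells, so the joint shares mostly restate those of Thrb. Crym, Thra and Thrb all had a count in 107 of 139 C1ql2 cells (77%), in 7 of 23 Foxp2 cells (30.4%) and in 24 of 68 Il1rapl2 cells (35.3%). In the Tnnc2 group 81 of 115 cells had Thrb without Crym, and in the Foxp2 group 15 of 23 cells had Crym without Thrb.

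By dissection level Thrb was 63.7, 52.7 and 55.9 CPM in anterior, 85.9, 52.9 and 65.2 CPM in medium and 93.9, 89.8 and 64.0 CPM in posterior cells. The posterior value was 1.47, 1.70 and 1.14 times the anterior one. With equal weight for the marker groups that had a cell at every level of an animal, however few, this was lost. The values were 83.4, 54.1 and 48.5 CPM posterior and 86.2, 52.1 and 63.0 CPM anterior.

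Thrsp encodes a nuclear protein tied to fat synthesis whose transcription the hormone raises in liver. It had 384 counts in 24 of 765 cells (3.14%), and none in the 309 cells of animal 3, where 0 of 309 allows up to 0.971% of cells with a count. This limits detection only, not how many cells express the gene. In animals 1 and 2 it stood at 5.30 and 7.23 CPM. The Ctgf group, with 4 and 7 cells in these animals, had 49.7 and 77.7 CPM and a count in 5 of 11 cells, and no other group reached a share above 8.70%. A single Foxp2 cell held 67 counts, or 17.4% of all Thrsp counts, and a single Ctgf cell held 52, or 13.5%. The overall share lies within the range of the astrocyte markers other than Aldoc, 1.44% to 8.50%, and below Aldoc at 43.5%. In the Ctgf group, highest in Thrsp, the summed astrocyte markers were the lowest of the groups, at 0 to 5.49 CPM. The part of astrocyte RNA in the Thrsp counts was not tested. Requiring 1 marker fewer for the groups, a setting chosen after seeing the data, lowered the Ctgf mean from 63.7 to 25.7 CPM.

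Genes whose level most resembled each member were ranked by Pearson's r of log2(CPM + 1) over 13 sums of at least 10 cells, which covered the 5 groups other than Foxp2 and Ctgf and shared animals. These values describe the sums and carry no test. For Crym the nearest were Pde1a (r = 0.933), a calcium-dependent phosphodiesterase gene at 969 CPM in C1ql2 cells and 343 CPM in Tnnc2 cells, followed by the kinase gene Mapk8 (0.911), the mitochondrial creatine kinase gene Ckmt1 (0.895), Sez6 (0.893) and Bend5 (0.886). For Thra they included Ints2 (0.893), Rgnef (0.879), Dok5 (0.859) and Hnrnpa2b1 (0.835), each highest in Osr1 cells by the mean and lowest in Il1rapl2 cells. For Thrb they were Rcan2 (0.952), a calcineurin inhibitor gene at 110 CPM in C1ql2 cells and 0.336 CPM in Osr1 cells, then Dcx (0.908), Nsmce2 (0.904), Khdrbs2 (0.896) and Dab1 (0.895). Each of the Thrb genes was lowest in Osr1 cells. For Thrsp, which had counts in 7 of the 13 sums, the values rest on few cells: Smndc1 (0.838), Rasa1 (0.823), Specc1l (0.820), Ankrd13b (0.795) and Wdr47 (0.777).

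In the sections, spots were grouped by marker genes within each section, and 1286 spots entered 9 groups while 687 entered none. No spot was assigned to a brain region, and only the Tshz2 group (116 spots) was cut by retrosplenial markers. Grouping was loose, with 483 spots near a cut. Over all spots Crym was 167 and 138 CPM in S4 and S8, Thra 443 and 553, Thrb 55.2 and 47.9, Dio2 29.0 and 39.6, and Thrsp 22.9 and 19.3 CPM. Median counts per spot were 8266.5 and 6705, so groups were read within a section and n is 2 sections.

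Crym was highest in the spots of the Trh group (markers Trh, Dlk1 and Calb2), at 422 and 307 CPM in S4 and S8, which was 2.53 and 2.23 times the level over all spots. The layer 6 markers' group named Foxp2 followed at 219 and 261 CPM, then Ccn2 (layer 6b markers) at 211 and 184 CPM and Etv1 (layer 5 markers) at 207 and 164 CPM. These first 4 places were the same in both sections. The Rorb (74.0 and 59.6 CPM), Tshz2 (61.6 and 82.8 CPM) and Cux2 (85.9 and 77.2 CPM) groups, cut by layer 4, retrosplenial and superficial markers, were all below the level over all spots.

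Thra was likewise highest in the Trh group, at 722 and 841 CPM with a count in every one of its 46 and 36 spots, which was 1.63 and 1.52 times all spots. The Tshz2 group (314 and 344 CPM) and the Rorb group (262 and 382 CPM) were the lowest in both sections. Every group had more Thra in S8 than in S4. The overlapping gene Nr1d1 moved the same way over all spots, from 31.9 CPM in S4 to 59.9 CPM in S8, and its part in the Thra values was not tested.

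The order of the spot groups was different for Thrb. It was highest in the Rorb (72 and 87.5 CPM) and Tshz2 (73.9 and 70.2 CPM) groups and lowest in the Foxp2 (36.6 and 23.2 CPM) and Ccn2 (30.5 and 24.0 CPM) groups. The Rorb group had 2.36 and 3.64 times the Thrb level of the Ccn2 group but 0.510 and 0.640 times its Thra level and 0.350 and 0.324 times its Crym level. The Thrb counts behind the lowest groups were few, 18 and 7 in Foxp2 spots and 13 and 6 in Ccn2 spots.

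**Figure D4:**
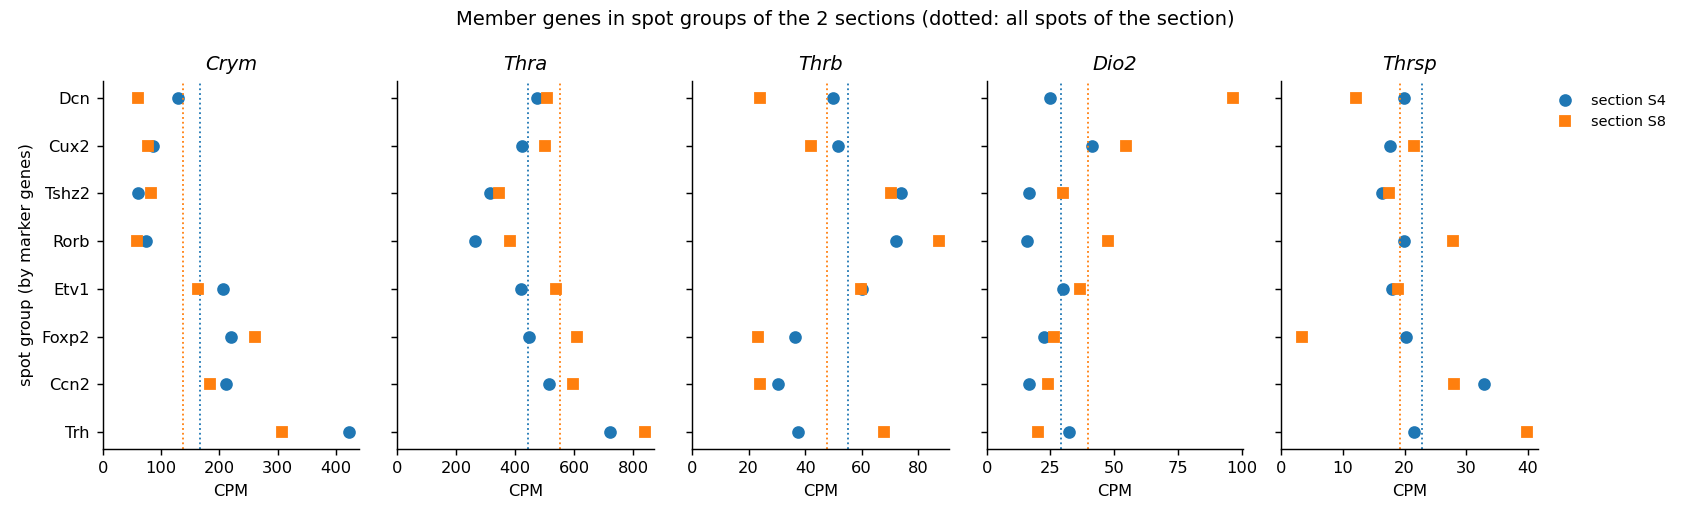
CPM of the 5 genes (x axes) in 8 of the 9 spot groups (y axis) for section S4 (circles) and S8 (squares), with dotted lines at the level over all spots of a section. Crym and Thra are highest in the Trh group in both sections, and Thrb is highest in the Rorb and Tshz2 groups.

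Dio2 had counts in 213 of 1022 spots (20.8%) in S4 and 213 of 951 (22.4%) in S8. The Cux2 group was the highest in S4 and the second in S8, at 41.2 and 54.7 CPM, 1.42 and 1.38 times all spots. The Dcn group, cut by meningeal markers, had 25.0 CPM in S4 and 96.6 CPM in S8, from 5 and 8 counts, so its place was not stable between sections. Summed astrocyte markers were highest in the Dcn group (2349 and 2813 CPM) but not in Cux2 spots (1265 and 1439 CPM against 963 to 1764 and 1043 to 1929 CPM in the other groups). Aldoc, which had a count in 43.5% of the neurons, gave 717 and 805 CPM of the Cux2 sums. In Cux2 spots Slc1a3 was just above the level over all spots in both sections (287 against 285 and 328 against 310 CPM). Gja1, Gfap, Aldoc and S100b were below it in both sections, and Aqp4 in S8 only. The part of astrocytes in Dio2 was not tested. The lowest Dio2 value in S4 was 16 CPM, in the Rorb group, which had 47.7 CPM in S8, and no group was lowest in both sections.

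Thrsp was found in 17.5% of S4 spots and 11.6% of S8 spots. The Ccn2 group, cut by the layer 6b markers, was first in S4 and second in S8, at 32.8 and 28.0 CPM, from 14 and 7 counts. The Trh group ranked 3 of 9 in S4 and first in S8, at 21.5 and 39.9 CPM. The range over groups was 16.4 to 32.8 CPM in S4 and 3.31 to 39.9 CPM in S8, and the lowest value rested on 1 count.

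The other pathway genes were tested in edgeR fits of all genes that kept the animal or section as a term. Calls needed a p below 0.05 after Benjamini-Hochberg adjustment, and a change of at least 1 on the log2 scale in either direction. The list of 47 held 7 transporters, 6 deiodinases and carriers, 3 receptor partners, 11 coregulators, 12 responsive genes and 8 lipogenic genes. Of these, 37 had a row in the cell table and all were tested there. Of the deiodinases and carriers only Secisbp2, needed to make selenoproteins, was in the cell table. Sums of fewer than 10 cells were left out, which dropped the Foxp2 and Ctgf groups and, in animal 1, the Osr1 and Il1rapl2 groups. The comparisons of groups share sums, and each is against the mean of the other groups on the log2 scale.

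By dissection level 1 of 37 pathway genes was lower and none higher in posterior than in anterior cells, against 0.103% of all 13628 genes called, and the median log2 fold change of the list was -0.09 (all genes 0.00). Between medium and anterior again 1 of 37 was lower, the only call among all genes (0.00734%), with a list median of 0.09 (all genes -0.03). The gene was Ptgds in both, the prostaglandin D2 synthase gene, abundant in oligodendrocytes and meninges. It was 474, 153 and 121 CPM in anterior cells of animals 1, 2 and 3, 2.00, 4.81 and 1.84 CPM in medium cells and 2.66, 1.92 and 0.883 CPM in posterior cells. It changed on the log2 scale by -6.99 (SE 0.40, edgeR adjusted p = 8.76e-05) in posterior and -5.92 (SE 0.38, edgeR adjusted p = 2.87e-04) in medium cells, with adjusted p of up to 0.0241 and 0.0487 over the other settings of the fit and the left-out animals.

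These Ptgds calls rested on 5 of the 765 cells. The 4 oligodendrocyte markers summed to 58.9 to 370 CPM in anterior cells of the animals, against 16.8 to 39.3 CPM in medium and 9.76 to 30.3 CPM in posterior cells. Exactly 5 cells had over 1000 CPM of these markers, 2, 1 and 2 in the 3 animals and all anterior, and they held 99.8%, 99.0% and 98.8% of the anterior Ptgds counts. Without them anterior Ptgds was 1.18, 1.57 and 1.5 CPM and neither call remained, with log2 fold changes of 0.20 (edgeR adjusted p = 1.00) and 0.86 (edgeR adjusted p = 0.941). That setting was chosen after seeing the data.

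In C1ql2 cells 2 of 37 pathway genes were higher and 0 lower, beside 4.56% of all 13541 genes called (392 higher, 225 lower), and the list's median log2 fold change was 0.15 (all genes 0.08). Among them was Nefh, the heavy neurofilament gene, at 90.1, 170 and 196 CPM against 31.0, 56.9 and 29.0 CPM in the mean of the other groups. On the log2 scale it rose by 2.12 (SE 0.39, edgeR adjusted p = 0.00551).

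In Calb1 cells 2 of 37 were higher and 1 lower, beside 3.57% of all genes (list median -0.07, all genes 0.06). Nrgn, the neurogranin gene and a classical hormone-responsive gene of forebrain neurons, was 2448, 1496 and 1594 CPM against 854, 898 and 735 CPM in the mean of the other groups (edgeR log2 change 1.05 with SE 0.11, adjusted p = 1.81e-04). Without animal 1 it was 0.98 and below the fold asked for. Flywch2 was 27.0, 12.1 and 19.9 CPM against 59.3, 52.6 and 50.4 CPM (edgeR log2 change -1.27 with SE 0.33, adjusted p = 0.0392). Its call was lost without animal 2 (edgeR adjusted p = 0.220) and without animal 3 (edgeR adjusted p = 0.144).

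In Osr1 cells 0 of 37 were higher and 2 lower, beside 4.79% of all genes (list median 0.04, all genes -0.02). Among them was Nefm, the medium neurofilament gene, at 471 and 488 CPM in animals 2 and 3 against 1161 and 1084 CPM (edgeR log2 change -1.20 with SE 0.13, adjusted p = 1.93e-04). Without animal 3 the count of calls in Osr1 cells was 4, with the lone Osr1 sum assumed to vary like the others.

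In Tnnc2 cells 2 of 37 were higher and 1 lower, beside 7.6% of all genes (list median 0.16, all genes 0.04). Rasd2, a gene of a small GTP-binding protein also named Rhes, was 8.96, 16.6 and 6.65 CPM against 45.1, 55.1 and 50.1 CPM (edgeR log2 change -2.30 with SE 0.32, adjusted p = 5.37e-04). Hr, the hairless corepressor gene that the hormone induces in brain, was 28.7, 11.5 and 12.8 CPM against 10.2, 3.96 and 3.76 CPM (edgeR log2 change 1.67 with SE 0.42, adjusted p = 0.0214), and Flywch2 was 49.7, 96.4 and 69.1 CPM against 47.9, 31.5 and 38.1 CPM (edgeR log2 change 1.17 with SE 0.27, adjusted p = 0.0134). Hr was not called without any single animal (edgeR adjusted p = 0.0914, 0.0993 and 0.175), nor Flywch2 without animal 2 or 3 (edgeR adjusted p = 0.104 and 0.102). Without animal 2 or without animal 3 only 1 of 37 was called.

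In Il1rapl2 cells 0 of 37 were called by edgeR or by DESeq2, with 6 at an unadjusted p under 0.05, beside 1.26% of all genes (list median -0.03, all genes 0.01). In no marker group was a coregulator, receptor partner or lipogenic gene called by edgeR. Camk4, a calcium-dependent kinase gene of the responsive list, passed the adjusted p in 3 groups without reaching the fold asked for, with log2 fold changes of 0.93 in Tnnc2, 0.66 in Il1rapl2 and -0.85 in C1ql2 cells.

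**Figure D5:**
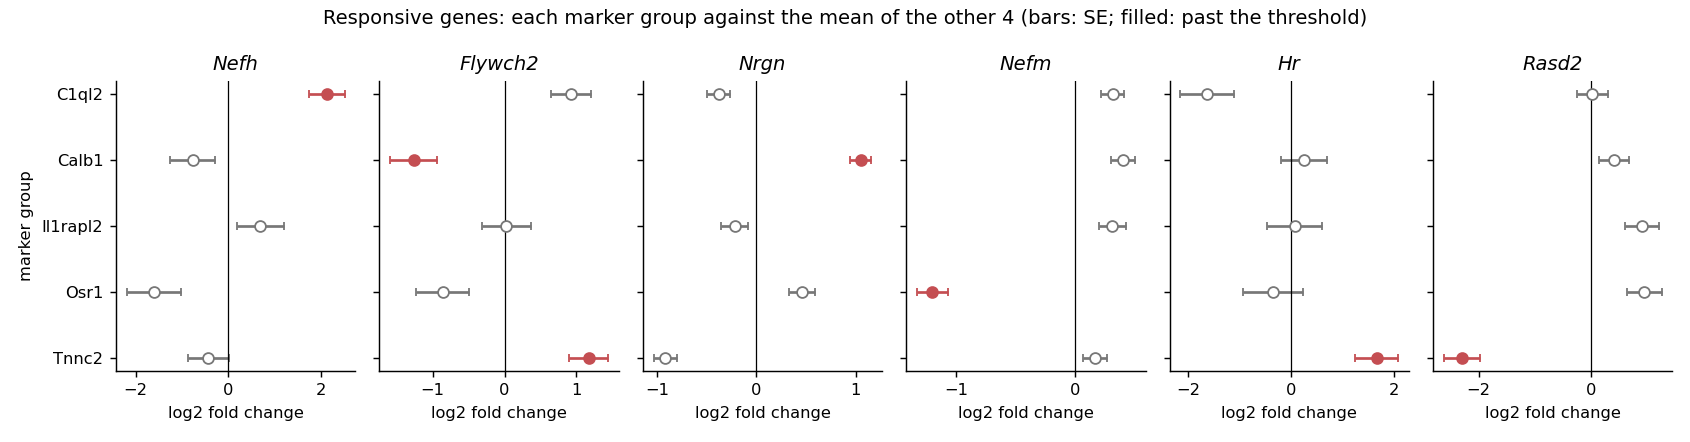
Log2 fold change (x axes, bars are SE from edgeR) of the 6 responsive genes called in at least 1 marker group, for 5 marker groups (y axis) each against the mean of the other 4, with filled points past the threshold. Nefh is filled at 2.12 in C1ql2 cells and Rasd2 at -2.30 in Tnnc2 cells, while Flywch2 is filled at -1.27 in Calb1 and at 1.17 in Tnnc2 cells.

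In the sections 40 of the 47 pathway genes passed the filter on low counts among 9040 genes. In the Trh group 1 was higher and 2 lower, beside 4.34% of all genes (list median -0.06, all genes 0.02). Dio3, the gene of the inactivating deiodinase, had 16 counts in S4 and 6 in S8, or 43.0 and 23.9 CPM, while all the other groups together had 15 counts (edgeR log2 change 5.16 with SE 0.71, adjusted p = 1.88e-08). Dlk1, 1 of the 3 markers that cut this group, lies in the same imprinted domain as Dio3. Sema7a (18.8 and 23.9 against 58.7 and 83.4 CPM, edgeR log2 change -1.72 with SE 0.34, adjusted p = 1.36e-04), a semaphorin gene, and Ptgds (180 and 143 CPM, edgeR log2 change -1.62 with SE 0.18, adjusted p = 1.78e-11) were lower. These are the spots where Crym and Thra were highest.

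In the Dcn group 3 of 40 were higher and 0 lower, beside 1.47% of all genes (list median 0.24, all genes -0.01). Ptgds was 5614 and 7702 CPM (edgeR log2 change 4.41 with SE 0.10, adjusted p = 2.95e-57). Ttr, the gene of the carrier transthyretin, was 30.0 and 145 CPM from 18 counts in all (edgeR log2 change 3.71 with SE 0.57, adjusted p = 1.63e-06). The 3 choroid plexus markers summed to 15 and 0 CPM there, and their part in the Ttr value was not tested. Without the section block or without the filter on low counts 2 of the 3 calls in this group were kept. The transporter gene Slco1c1, whose product carries thyroxine, was 75.0 and 60.4 CPM in Dcn spots and 12 to 47.7 CPM in the other groups, and was not called.

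The remaining spot groups held few calls. Nefm was lower in the Ccn2 group, the only call among 40 there (91.5 and 96.1 CPM, edgeR log2 change -1.07 with SE 0.18, adjusted p = 2.07e-05), beside 0.863% of all genes (list median -0.07, all genes 0.02). Ptgds was higher in the Tshz2 group, again 1 of 40 (540 and 1141 CPM, edgeR log2 change 1.02 with SE 0.12, adjusted p = 5.40e-10), beside 1.28% of all genes (list median 0.01, all genes 0.03), although the plain mean of the other groups was 1083 CPM, with the Dcn group among them. In the Cux2, Etv1, Foxp2 and Rorb groups 0 of 40 were called by edgeR or by DESeq2, with 9, 2, 6 and 7 at an unadjusted p under 0.05, beside 1.44%, 0.111%, 1.18% and 1.02% of all genes.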

How the data were processed

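Whole-number counts per gene and cell (11 samples, 3 animals) or spot (2 sections) were deposited by the authors; the values are not normalized. The submitters' processing notes name Seurat, Space Ranger and the builds NCBIM37 and mm10, and whether the cell counts are reads or molecules is not given in the sources used here. The deposited cell names give sample and dissection level, and a deposited table gives the animal. Which labelled section is S4 or S8 was not used. The spot columns number 1022 and 951, with 8436518 and 6389042 counts. A count of 0 was read as allowing 3 counts.

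Members, lists and tests were chosen with earlier results of these data known. The rule for assigning cells (z-scores, at least 2 of 4 markers) was chosen after seeing the data, over a score by the fraction of markers with a count. A cell or spot was near a cut when its best 2 scores differed by less than 0.5. No doublet caller was run.

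Counts were summed per animal and level, per animal and marker group (at least 10 cells, at least 2 animals) and per section and spot group, and fitted in R 4.3.3 by the quasi-likelihood functions of edgeR 4.0.16 after filterByExpr and TMM scaling, with the animal or section as block because sums of different groups came from the same animals or sections. The SE is the log2 fold change divided by the root of F. The fit was tested on simulated data. Levels in the text are plain CPM. Whether the 2 sections came from separate animals is not given in the sources used here. The p-values measure only how differences between groups or levels varied over animals or sections, pooled over the groups of a fit. Named genes were the members, every called pathway gene and the 5 genes most like each member with a mean of at least 10 CPM, leaving out the grouping markers and predicted, ribosomal and mitochondrial genes; genes named beside these (Camk4, Nr1d1, Slco1c1, Secisbp2) were chosen after their values were seen. Some genes that this rule names, and 1 spot group, are not reported here. Alternatives were DESeq2 1.42.0, no filter, no block, each animal left out, sums per sample, TMM levels, stricter or looser groups and thinning. Python was 3.11.15. Intervals and floors cover counting error only.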

Additional observations from a re-analysis of the deposited data

Results flagged for a closer look

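Thrb differed between posterior and anterior cells in opposite directions in 2 marker groups, in every animal with at least 5 cells at both levels. In Il1rapl2 cells it was lower in posterior cells, at 6.19 against 72.3 CPM in animal 2 and 39.5 against 49.1 CPM in animal 3, a mean difference of -37.9 CPM (22.8 against 60.7 CPM). Animal 2 carries most of that mean, and its posterior value rests on 4 counts in 2 of 5 cells. In Tnnc2 cells it was higher in posterior cells, at 102 against 87.3 CPM in animal 1 and 73.1 against 63.0 CPM in animal 3, a mean difference of 12.4 CPM (87.5 against 75.2 CPM). Medium Tnnc2 cells did not lie between, since their Thrb was lower than anterior in 3 of 3 animals (41.9 against 70.8 CPM). The difference between the groups was not tested, and the pairs of animals differ.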

How the results depend on the processing

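The 5 member levels followed here kept within 1 SD of the main value under all their alternatives: Crym ranged from 553 to 634 CPM in C1ql2 cells, from 234 to 461 CPM in posterior cells and from 349 to 366 CPM in Trh spots, and Thra from 321 to 481 CPM in Osr1 cells and from 748 to 782 CPM in Trh spots. Leaving out 1 of 3 animals cannot move a mean by 1 SD, so for levels in cells that alternative could not fail. Removing the replicate block (animal or section) left 2 of the 3 pathway genes called in Dcn spots and changed no call of a gene named here. Leaving out each animal gave 1 to 1 called pathway genes for both dissection levels, 2 to 3 in C1ql2, 2 to 2 in Calb1, 0 to 0 in Il1rapl2, 3 to 4 in Osr1 and 1 to 2 in Tnnc2 cells. DESeq2 called 5 pathway genes in Calb1 cells and 4 in Osr1 cells, against 3 and 2 with edgeR. Without the filter on low counts 1 was called in Foxp2 spots, against 0. Without the 5 cells rich in oligodendrocyte markers 0 were called in both comparisons of levels, and Ptgds turned to 0.20 and 0.86. For the counts of called genes and the 5 levels above, 91 of 99 alternative values stayed within 1.5 times (counts) or 1 SD (levels) of the main ones. The 91 include the levels with an animal left out, whose outcome was fixed in advance. Among the other member values, 6 levels in cell groups, 4 by dissection level, 11 in spot groups and 7 shares of cells moved by more than their spread, 10 of them with spots of a clear margin only (Dio2 in Ccn2 spots fell to a mean of 3.55 CPM), 7 with thinning and 5 with 1 marker fewer. Of the fold changes of single genes, 2 reversed and 10 no longer passed the threshold. A fit without a section could not be tested, since 1 sum per group leaves no spread. Dio2 and Thrsp rested on few counts in many spot groups, as few as 5 for Dio2 and 1 for Thrsp, which limits the order of those groups.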
